A study of Drosophila melanogaster with 18 samples.

Results

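The genes described here set regional identity in the Drosophila wing disc, the larval epithelial sac that forms the adult wing, its hinge and the adjoining body wall. They were taken by symbol: vg, sd, ap, nub, pdm2, rn, tsh, hth and eyg. Of these 9 symbols, 8 had a row among the 15602 genes of the deposited table, and all 8 passed the filter on low values. No row carries the symbol rn, so that gene is not analysed here.

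All discs came from wild-type OregonR larvae at 96 h after egg laying. The 18 RNA-seq libraries form 6 groups of 3. One group was frozen without culture (fresh discs). The others were kept in Grace's insect medium with 5 mM BisTris buffer, to which 5% fetal bovine serum was added in every cultured group. The medium held no added hormone for 4 h, 20 nM 20-hydroxyecdysone (20E, the active insect moulting steroid) for 4 h or 9 h, or 5 µg/ml bovine insulin for 4 h or 9 h. Discs were cultured in batches and pooled for RNA, so a library averages many discs, and there is no hormone-free culture at 9 h. The design text calls the 3 libraries of a group biological replicates.

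In the wing disc, the products of vg and sd act as one complex: Vestigial is a coactivator without a DNA-binding domain of its own, and Scalloped is the TEAD-family protein that binds DNA. Together they specify the wing field. The LIM-homeodomain protein Apterous marks the dorsal compartment, and the POU-domain proteins Nubbin and Pdm2 are made in the wing pouch, the region that becomes the blade. The zinc-finger protein Teashirt and the homeodomain protein Homothorax are kept out of the pouch and mark the hinge and body wall, where the Pax-family protein Eyegone is made in the notum, the dorsal thorax.

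All 8 genes were expressed in every library. Values are FPKM, a fragment count scaled by transcript length and by the size of the library, which allows levels to be compared between genes. Averaged over the 18 libraries, hth stood highest (a mean level of 140 FPKM), followed by sd (121), ap (114) and tsh (92.1). Lower levels were found for nub (55.4 FPKM), vg (52.0), eyg (17.5) and pdm2 (16.8), against a median over all 8524 tested genes of 23.4 FPKM. The most even of the genes was sd, whose highest library held 1.16 times its lowest. At the other end, hth spanned 2.03-fold, eyg 1.97-fold and pdm2 1.95-fold. The range of the 6 group means of sd, 0.14 on the log2(FPKM + 1) scale, was wider than that of only 0.997% of tested genes. For hth the range was 0.77, wider than that of 60.9% of tested genes. For each of the 8 genes, the highest and lowest group means lay less than 2-fold apart.

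**Figure D1:**
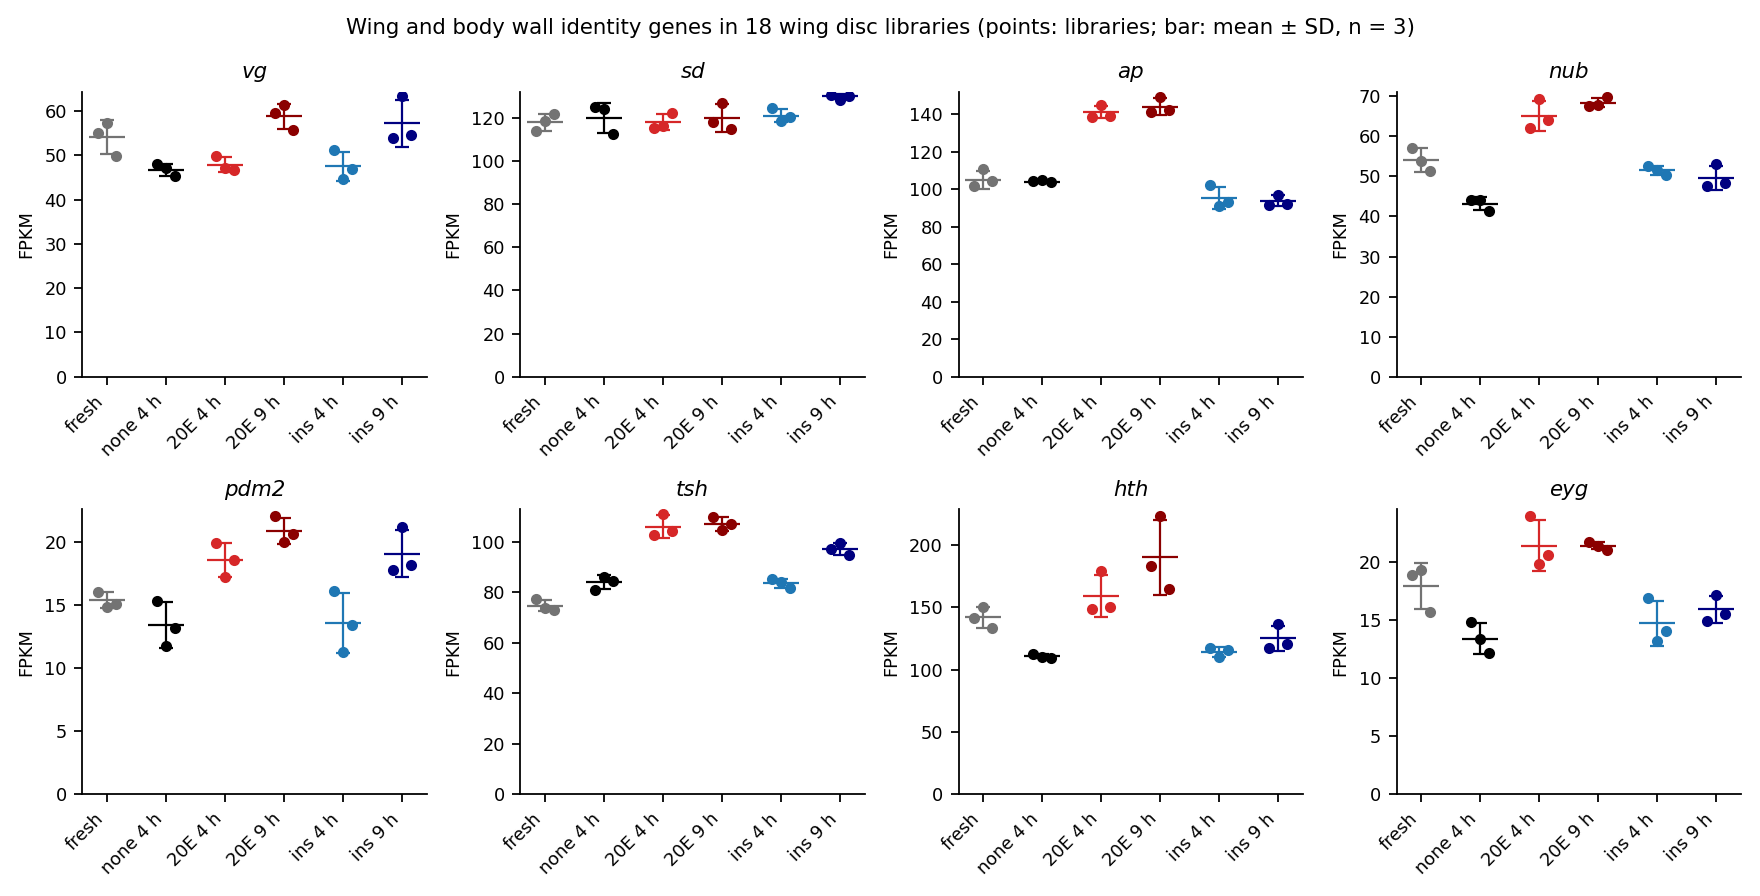
FPKM of the 8 genes in each library (points), with the group mean and SD (bars, n = 3), for fresh discs, no hormone at 4 h, 20E at 4 h and 9 h, and insulin at 4 h and 9 h. Both 20E groups have the highest means for ap, nub, tsh, hth and eyg, whereas sd lies between 112 and 131 FPKM in every library.

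The labelled tissue was checked against its markers. The wing disc list (vg, nub, ap and the thoracic Hox gene Antp) was expressed in every library. Because vg, nub and ap are among the genes described here, only Antp is a separate marker in that list. Antp lay between 25.7 and 36.6 FPKM. Of the 5 eye-antennal markers, ey, toy and dan stayed under 1 FPKM in all libraries, while so (4.86 to 9.44 FPKM) and eya (3.05 to 8.99) were expressed in each. The 5 summed to 9.34 to 10.4 FPKM in fresh discs, 15.1 to 15.9 without hormone, 15.7 to 16.8 with 20E at 9 h and 9.52 to 11.4 with insulin at 9 h. Ubx, the haltere Hox gene, which is also made in the squamous layer of the wing disc, ranged from 5.31 to 16.8 FPKM. Its highest level came with 20E at 9 h, where the summed level of Ubx, abd-A and Abd-B was 14.5 to 16.8 FPKM against 7.03 to 9.03 in insulin at 9 h. The 3 leg disc markers dac, Dll and Scr summed to 66.7 to 78.4 FPKM with 20E at 9 h and to 51.4 to 55.8 with insulin at 9 h. Of these, Dll is also made in the wing pouch. All 6 myoblast markers were expressed (twi, htl, Mef2, zfh1, Him and stumps), as discs carry muscle precursors, and their sum ranged from 78.7 to 117 FPKM.

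Haemocyte markers other than the collagen genes Cg25C and vkg stayed under 1 FPKM in every library (6 of 8), and all 6 fat body markers had a median at or near 0. Gut proteases differed between replicates. Their 6 markers summed to 10950 FPKM in uncultured replicate 2, to 740 in no hormone replicate 1 and to 229 and 136 in insulin at 4 h replicates 2 and 3, against 1.31 to 39.4 FPKM in the other libraries. Group differences were also computed without the 2 libraries that held most of these transcripts. These were uncultured replicate 2 and no hormone replicate 1, left out together. The libraries of insulin at 4 h were left out one at a time only. In whole discs, fewer cells of a region and less RNA per cell cannot be told apart.

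Changes are given as differences of log2(FPKM + 1), with standard errors from one limma model fitted to all tested genes and libraries, and adjusted p-values (Benjamini-Hochberg over all tested genes). A gene is said to have risen or fallen where its adjusted p was under 0.05. With 3 libraries against 3, the smallest p of an exact permutation test on 1 gene is 0.1. The calls therefore depend on the model, which shares information on spread over genes and groups.

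The wing field selectors vg and sd did not pass the test for either hormone at 4 h. For vg, fresh discs held 55.1, 57.4 and 49.8 FPKM, and discs without hormone held 47.9, 47.0 and 45.3. The groups did not overlap, and vg fell by 0.20 ± 0.07 (SE, adjusted p = 0.0154), to 0.865 of its level in fresh discs. This call was lost without uncultured replicate 2 (adjusted p = 0.0718), without no hormone replicate 3 (0.0543), without the 2 libraries with the most gut transcripts (0.079) and after quantile normalization (0.0815).

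With 20E for 4 h, vg stood at 49.8, 47.2 and 46.6 FPKM, and with insulin for 4 h at 51.1, 44.5 and 46.9. All groups at 4 h overlapped. The difference between 20E and no hormone was 0.03 (95% interval -0.11 to 0.18) and that between insulin and no hormone 0.02 (-0.13 to 0.17). By 9 h, vg was higher in both hormones. It reached 59.5, 61.2 and 55.8 FPKM in 20E, a rise of 0.29 ± 0.07 from 4 h (adjusted p = 0.0074). In insulin at 9 h it stood at 53.8, 63.4 and 54.6 FPKM, a rise of 0.26 ± 0.07 from 4 h (adjusted p = 0.00642). Neither pair of time points overlapped. The rises in the 2 hormones differed by 0.03 (95% interval -0.18 to 0.24, adjusted p = 0.847), and at 9 h 20E and insulin differed by 0.04 (-0.10 to 0.19). In order of group means vg ran from 20E at 9 h through insulin at 9 h, fresh discs, 20E at 4 h and insulin at 4 h to no hormone, and every neighbouring pair in this order overlapped.

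For sd, the values were 114, 118 and 122 FPKM in fresh discs, 125, 124 and 112 without hormone, and 115, 116 and 122 with 20E at 4 h. Insulin at 4 h gave 124, 119 and 120 FPKM and 20E at 9 h 118, 127 and 115. These 5 groups overlapped. Insulin at 9 h stood apart, at 131, 128 and 130 FPKM. Against fresh discs sd was higher there by 0.14 ± 0.05 (adjusted p = 0.0157). This call was lost without uncultured replicate 1 (adjusted p = 0.069). After quantile normalization sd was also called above fresh discs in every other cultured group. It was higher by 0.21 without hormone (adjusted p = 0.00124) and by 0.18 in insulin at 4 h (0.00692). In 20E it was higher by 0.24 at 4 h (0.000429) and by 0.29 at 9 h (7.41e-05). Against 20E at 9 h the difference was -0.11 ± 0.05 for 20E minus insulin (adjusted p = 0.0483), and 19 of 27 alternatives ended that call. The 95% interval of the 20E effect on sd at 4 h ran from -0.13 to 0.07, and that of the insulin effect from -0.09 to 0.11.

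The dorsal selector ap was higher with 20E and not with insulin. It held 102, 111 and 104 FPKM in fresh discs and 104, 105 and 104 without hormone, overlapping groups whose difference was -0.02 (95% interval -0.11 to 0.08, adjusted p = 0.756). With 20E for 4 h it held 139, 145 and 139 FPKM. All 3 libraries exceeded every library without 20E, and ap was 1.35-fold above no hormone (0.43 ± 0.04, adjusted p = 3.72e-06). At 9 h in 20E it stayed at 141, 149 and 142 FPKM, a change from 4 h of 0.03 (-0.06 to 0.12).

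In insulin ap was slightly lower. It stood at 102, 91.1 and 93.0 FPKM at 4 h, a fall of 0.13 ± 0.04 against no hormone (adjusted p = 0.0192) that lost its call without insulin at 4 h replicate 2 (0.0949) or replicate 3 (0.0728), without no hormone replicate 2 (0.0521) and when only these groups were fitted (0.0586). At 9 h in insulin it stood at 91.7, 97.0 and 92.3 FPKM. The distance between the hormones was 0.56 ± 0.04 at 4 h (adjusted p = 8.9e-08) and 0.61 ± 0.04 at 9 h (adjusted p = 3.77e-08), the smallest adjusted p of the 8 genes at both times.

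The pouch gene nub fell in culture and was higher with either hormone. Fresh discs held 57.2, 54.0 and 51.3 FPKM and discs without hormone 44.1, 44.2 and 41.4. With 20E for 4 h nub reached 62.0, 69.4 and 64.0 FPKM, and with insulin for 4 h 52.7, 51.5 and 50.3. The hormone-free libraries were below all others. The fall in culture was 0.32 ± 0.05 on the log2 scale (adjusted p = 5.93e-05). Compared with no hormone, nub rose by 0.58 ± 0.05 in 20E (1.51-fold, adjusted p = 9.58e-07) and by 0.25 ± 0.05 in insulin (1.19-fold, adjusted p = 0.000781). The hormones themselves differed by 0.33 ± 0.05 at 4 h (adjusted p = 7.07e-05). At 9 h, nub stood at 67.6, 67.9 and 69.7 FPKM in 20E and at 47.7, 53.2 and 48.3 in insulin, apart by 0.45 ± 0.05 (adjusted p = 4.61e-06).

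Its paralog pdm2, separated from nub by 1 protein-coding gene in the Release 6 annotation, had the largest change of the 8 genes between 4 h and 9 h in insulin. It held 16.1, 14.9 and 15.1 FPKM in fresh discs, 15.4, 11.8 and 13.2 without hormone and 19.9, 17.3 and 18.6 with 20E at 4 h. The libraries with 20E were above the other 2 groups, and pdm2 rose by 0.45 ± 0.11 over no hormone (1.38-fold, adjusted p = 0.00658). Insulin at 4 h left it at 16.1, 11.3 and 13.4 FPKM, a difference of 0.01 from no hormone (95% interval -0.22 to 0.25). By 9 h in insulin it had risen to 17.8, 21.2 and 18.2 FPKM, by 0.46 ± 0.11 (1.4-fold, adjusted p = 0.00344). In 20E at 9 h it stood at 22.1, 20.0 and 20.7 FPKM. That was above every 20E library at 4 h, but the change was not called (0.16, 95% interval -0.07 to 0.40, adjusted p = 0.318). The difference of pdm2 between 20E and insulin at 9 h was no longer called (0.13, 95% interval -0.11 to 0.37, adjusted p = 0.342). The rise in insulin minus that in 20E was not called either (interaction -0.30 for 20E minus insulin, 95% interval -0.64 to 0.03, adjusted p = 0.171; 0.0428 without insulin at 4 h replicate 1).

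Among the genes of the hinge and body wall, tsh rose in culture and rose further with 20E. Fresh discs held 77.4, 73.8 and 73.1 FPKM, the lowest of all groups. Without hormone it stood at 80.8, 86.2 and 84.5 FPKM, higher by 0.16 ± 0.04 (adjusted p = 0.00111), the only one of the 8 genes to rise in hormone-free culture on the authors' scale. With 20E for 4 h it reached 103, 111 and 104 FPKM. No library of these 3 groups overlapped another group, and the rise over no hormone was 0.33 ± 0.04 (1.26-fold, adjusted p = 1.02e-05).

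Insulin at 4 h left tsh at 85.1, 84.2 and 81.6 FPKM, a difference from no hormone of 0.00 (95% interval -0.08 to 0.08). It then rose to 97.0, 99.4 and 94.7 FPKM at 9 h, by 0.21 ± 0.04 (adjusted p = 0.000378). In 20E tsh was at 110, 105 and 107 FPKM at 9 h, a change from 4 h of 0.02 (-0.06 to 0.10). The change with time differed between the hormones (interaction -0.19 ± 0.05 for 20E minus insulin, adjusted p = 0.014), the only one of the 8 genes for which it did. Of all tested genes, 26.5% were called for this interaction, 13% with a change from 4 h to 9 h that was lower in 20E than in insulin.

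Its partner in proximal identity, hth, had the lowest level without hormone. Fresh discs held 141, 150 and 133 FPKM and discs without hormone 112, 110 and 110. That fall, of 0.35 ± 0.10 (adjusted p = 0.00401), lost its call after quantile normalization, where it was -0.15 (adjusted p = 0.248). With 20E for 4 h hth stood at 149, 179 and 150 FPKM, 1.44-fold over no hormone (0.52 ± 0.10, adjusted p = 0.000793). The 20E libraries overlapped those of fresh discs but not those without hormone.

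With insulin for 4 h hth held 117, 110 and 116 FPKM, within 0.05 of no hormone (95% interval -0.15 to 0.25). In 20E at 9 h it reached 183, 223 and 164 FPKM, the widest spread of any group for this gene. Replicate 2 was the highest 20E library at both times. The rise from 4 h to 9 h in 20E was 0.25 ± 0.10 and was not called (adjusted p = 0.0769), but it was without 20E at 4 h replicate 2 (0.0305) and without 20E at 9 h replicate 3 (0.0198). Insulin at 9 h gave 118, 136 and 120 FPKM, and 20E exceeded it by 0.59 ± 0.10 (1.52-fold, adjusted p = 0.00011).

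The notum gene eyg had the largest fall in culture and the largest rise with 20E of the 8 genes. It held 18.8, 19.3 and 15.6 FPKM in fresh discs and 14.8, 13.3 and 12.2 without hormone. With 20E for 4 h it reached 23.9, 19.8 and 20.5 FPKM. No 2 of these groups overlapped. The fall was 0.39 ± 0.10 (adjusted p = 0.00276) and the rise 0.64 ± 0.10 (1.6-fold, adjusted p = 0.000227). Insulin at 4 h gave 16.9, 13.2 and 14.0 FPKM, overlapping no hormone (0.12, 95% interval -0.09 to 0.33). At 9 h eyg stood at 21.7, 21.4 and 21.0 FPKM in 20E and at 14.9, 17.2 and 15.6 in insulin, apart by 0.41 ± 0.10 (adjusted p = 0.00321).

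By comparison, 5 of the 8 genes were called between discs without hormone and fresh discs, a comparison in which 70.6% of all tested genes were called (35.1% higher and 35.5% lower). Lower were vg, nub, hth and eyg, and tsh was higher. The median change of the 8 was -0.20, against -0.00 over all tested genes. The direction of this count depended on the scaling: after quantile normalization 3 were higher (sd, ap and tsh) and 2 lower (nub and eyg). Over all genes that scaling gave 53.4% higher among the called.

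Between 20E and no hormone at 4 h, 6 of the 8 were higher (ap, nub, pdm2, tsh, hth and eyg) and 0 lower. Of all tested genes 30.7% were called, 15.7% higher and 15% lower. The median change of the 8 was 0.44, against -0.01 over all tested genes. The count was 6 in all 27 alternatives. It held genes of the pouch (nub and pdm2), the dorsal compartment (ap), the hinge and body wall (tsh and hth) and the notum (eyg). The wing field genes vg (0.03) and sd (-0.03) were not among them. For the 6 genes called, the libraries of the groups did not overlap.

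Between insulin and no hormone at 4 h, the calls took in 57.9% of tested genes (30.3% higher, 27.6% lower) and 2 of the 8, nub higher and ap lower. The comparisons with fresh discs, with 20E and with insulin share the hormone-free libraries. A low level there lowers the first difference and raises the other 2. Direct comparison of the hormones avoids those libraries. At 4 h 6 of the 8 were higher in 20E than in insulin (ap, nub, pdm2, tsh, hth and eyg), where 56.8% of tested genes were called, 27.6% higher and 29.2% lower. At 9 h 5 were higher in 20E (ap, nub, tsh, hth and eyg) and sd was lower, where 53% of tested genes were called, 26.6% higher and 26.4% lower.

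**Figure D2:**
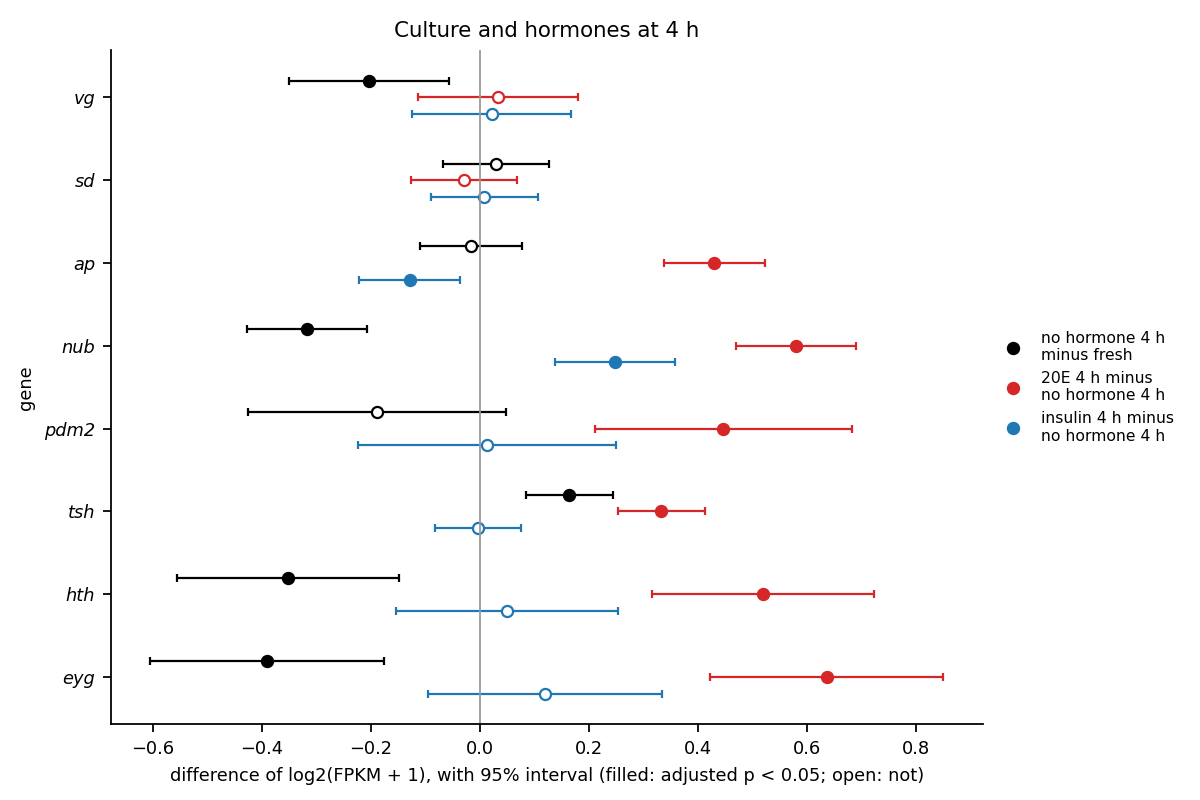
Differences of log2(FPKM + 1) for the 8 genes, with 95% intervals, for no hormone against fresh discs (black), 20E against no hormone (red) and insulin against no hormone (blue), all at 4 h. Filled points passed an adjusted p of 0.05. The 20E points of 6 genes lie between 0.33 and 0.64, while those of vg and sd lie at 0.03 and -0.03.

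Measured against fresh discs, which leaves out the hormone-free cultures, 4 genes were higher after 4 h in 20E (67.3% of tested genes called, 34.2% higher and 33.1% lower). They were tsh (0.50 ± 0.04), ap (0.41 ± 0.04), nub (0.26 ± 0.05) and eyg (0.25 ± 0.10). The call of eyg was lost in 6 of 27 alternatives, and without uncultured replicate 3 its difference was 0.16 (adjusted p = 0.196). The values for pdm2 (0.26, adjusted p = 0.0512) and hth (0.17, adjusted p = 0.136) were not called. But pdm2 was called in 10 of 27 alternatives, and hth after quantile normalization (0.44, adjusted p = 0.0035). Lower was vg (-0.17 ± 0.07, adjusted p = 0.0384, lost in 7 of 27 alternatives). After 9 h in 20E 6 genes were higher (71.3% of tested genes called, 36.9% higher and 34.4% lower), from 0.25 for eyg to 0.51 for tsh. That call of eyg too was lost in 6 of 27 alternatives, among them without uncultured replicate 3 (0.16, adjusted p = 0.19) and without 20E at 9 h replicate 1 (0.0866), replicate 2 (0.0747) or replicate 3 (0.063).

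After 4 h in insulin, the calls against fresh discs took in 52.4% of tested genes (25.8% higher, 26.7% lower) and 5 of the 8. Higher was tsh (0.16 ± 0.04), and vg, ap, hth and eyg were lower, from -0.14 for ap to -0.30 for hth. All 4 falls lost their call without uncultured replicate 2 (adjusted p of 0.141 for vg, 0.0608 for ap, 0.0586 for hth and 0.121 for eyg). They also did so without insulin at 4 h replicate 2 (0.146 for vg, 0.0589 for ap, 0.0511 for hth and 0.139 for eyg). Both libraries held gut transcripts, whose part in these falls was not tested. After 9 h in insulin tsh, pdm2 and sd were higher and ap and nub lower (67.6% of tested genes called, 34.4% higher and 33.2% lower). The call of nub was lost in 17 of 27 alternatives and that of pdm2 in 5, and that of ap after quantile normalization.

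From 4 h to 9 h, 1 of the 8 was called in 20E (vg, where 22.9% of tested genes were called, 11.2% higher and 11.7% lower) and 3 in insulin (vg, pdm2 and tsh, all higher, where 44.6% of tested genes were called, 21.3% higher and 23.3% lower). In insulin the myoblast marker sum also was higher at 9 h (106 to 114 FPKM) than at 4 h (78.7 to 87.1), without overlap. In 20E that sum was 111 to 117 FPKM at 9 h and 91.5 to 113 at 4 h, overlapping ranges. The part of these cells in the rises with time in either hormone was not tested. With no hormone-free culture at 9 h, the time in culture and the hormone cannot be told apart in these changes.

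**Figure D3:**
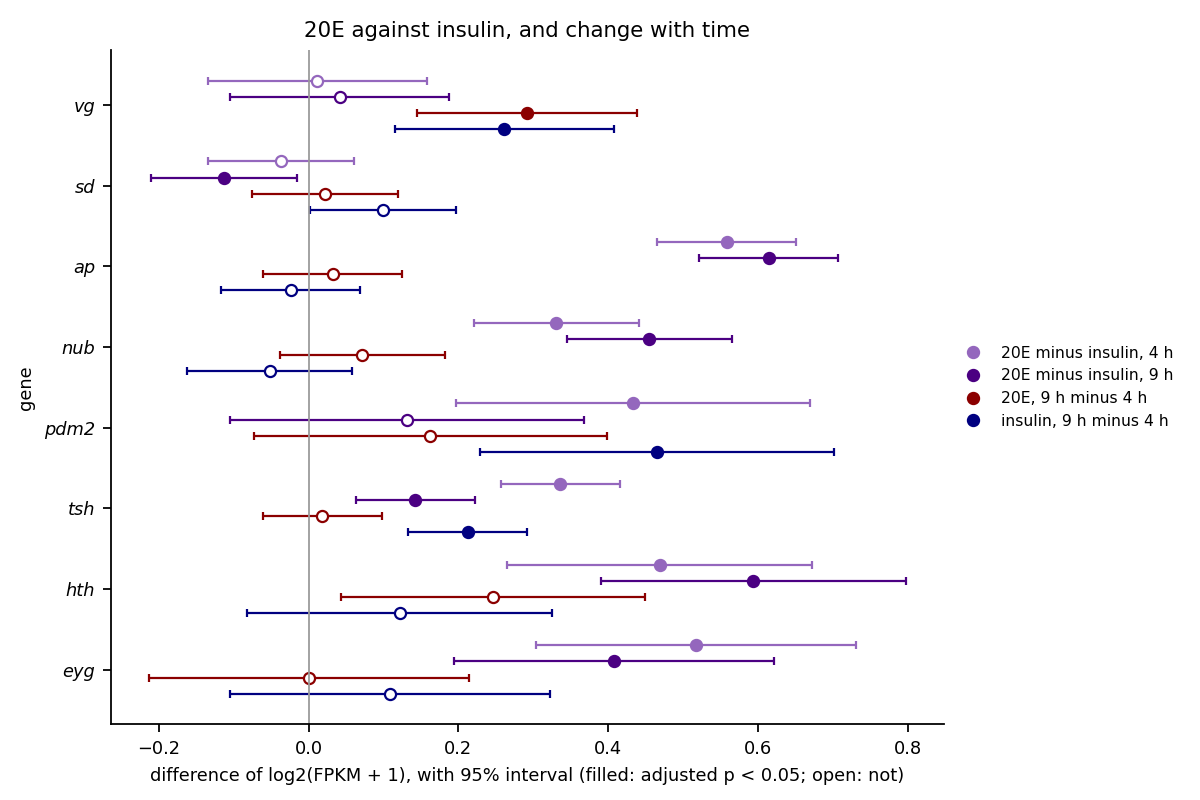
Differences of log2(FPKM + 1) for the 8 genes, with 95% intervals, for 20E against insulin at 4 h (purple) and 9 h (indigo) and for 9 h against 4 h within 20E (dark red) and within insulin (dark blue). Filled points passed an adjusted p of 0.05. The rise of vg with time is alike in both hormones (0.29 and 0.26). In insulin pdm2 and tsh also rise with time, and only for tsh was the difference between the hormones in this change called.

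A single scaling factor per library leaves differences between genes within that library unchanged, apart from the effect of the added 1 FPKM. Pouch genes (the mean log2 value of vg, nub and pdm2) were set against hinge and body wall genes (tsh, hth and eyg) in this way. The balance was -0.66, -0.72 and -0.65 in fresh discs and -0.67, -0.77 and -0.72 without hormone. With 20E at 4 h it was -0.84, -0.92 and -0.83, below every library of fresh discs, of no hormone and of insulin at either time. It was -0.64, -0.73 and -0.68 with insulin at 4 h and -0.63, -0.56 and -0.62 with insulin at 9 h, where it was highest. At 9 h in 20E it was -0.76, -0.85 and -0.73, overlapping no hormone. The differences between 20E and no hormone at 4 h were 0.03 for vg, 0.58 for nub and 0.45 for pdm2. They were 0.33 for tsh, 0.52 for hth and 0.64 for eyg. So nub and pdm2 lay within the range of the hinge and body wall genes, and only vg lay below it. As a score over chosen genes, the balance carries no test.

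The log2 level of nub exceeded that of pdm2 by 1.70 to 1.79 in fresh discs, by 1.46 to 1.83 without hormone and by 1.59 to 1.95 with 20E at 4 h. In insulin the difference ranged from 1.65 to 2.09 at 4 h and from 1.29 to 1.38 at 9 h. The 3 libraries of insulin at 9 h therefore held the lowest ratio of nub to pdm2 of all 18. The log2 level of vg relative to sd was -1.27 to -1.03 in fresh discs and -1.38 to -1.29 without hormone. At 4 h it was -1.38 to -1.20 in 20E and -1.39 to -1.27 in insulin, and at 9 h -1.04 to -0.98 in 20E and -1.26 to -1.01 in insulin.

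**Figure D4:**
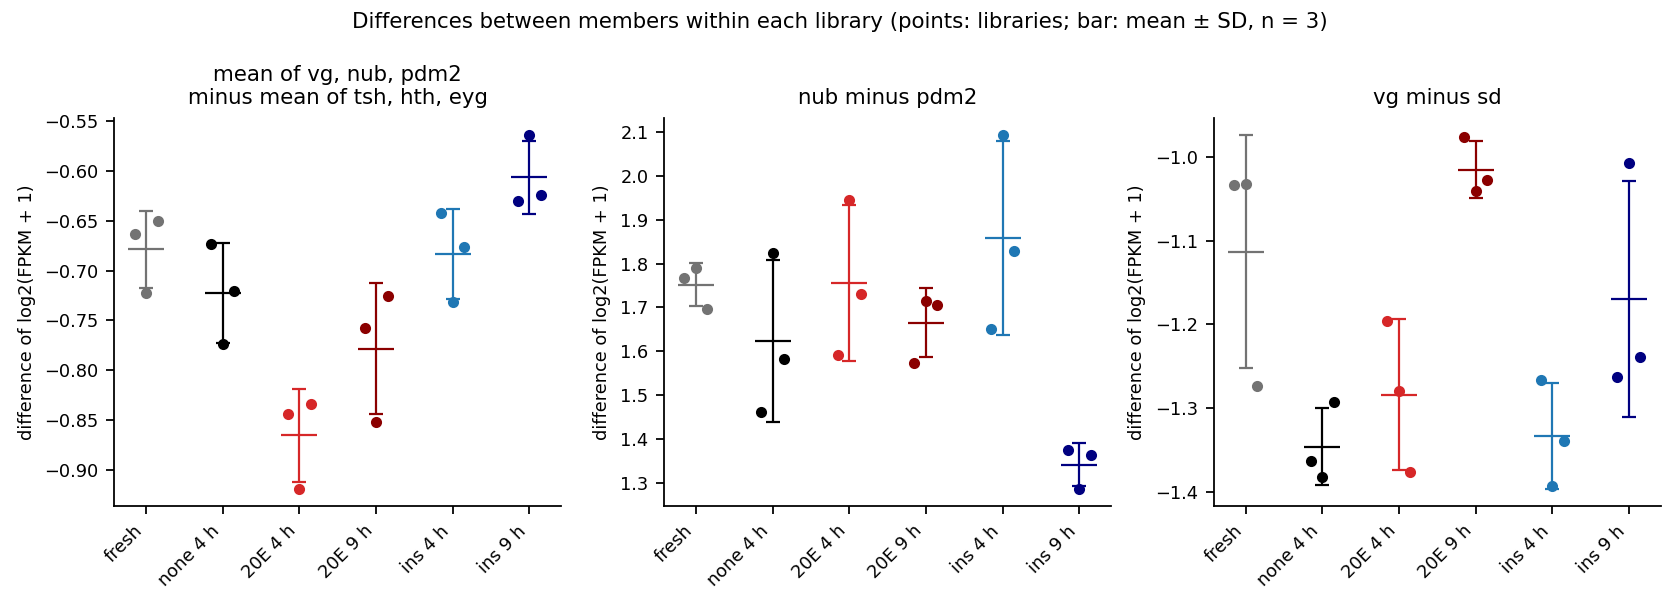
Differences of log2(FPKM + 1) between members within each library (points), with group mean and SD (bars, n = 3): pouch minus body wall genes, nub minus pdm2, and vg minus sd. The vertical axes do not start at 0. The balance is lowest with 20E at 4 h (-0.92 to -0.83), and nub minus pdm2 is lowest with insulin at 9 h (1.29 to 1.38). Of the pouch genes in the balance, vg differed between 20E and no hormone at 4 h by 0.03, nub by 0.58 and pdm2 by 0.45.

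Over the 18 libraries, the genes varied together to differing degrees. Pearson's r of log2 levels was 0.894 between nub and hth, 0.892 between nub and eyg, 0.852 between hth and eyg and 0.852 between ap and hth. Values for sd with the other genes ran from -0.347 (ap) to 0.299 (vg), and those for vg from 0.191 (ap) to 0.708 (pdm2). These libraries share their groups, so r is a description of the group pattern and carries no p. These pairs include genes of different regions (nub and hth) and of the same region (hth and eyg).

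Outside the 8 genes, the closest patterns among 6593 protein-coding genes with a mean of at least 5 FPKM were looked up for each. For eyg they were br (r = 0.939), the ecdysone early gene that encodes Broad, and tup (0.925), which encodes a LIM-homeodomain protein of the notum. For hth they were vn (0.967), which encodes a neuregulin-like ligand of the EGF receptor, and CG34347 (0.952). The closest to ap were tna (0.984) and svp (0.983), a nuclear receptor gene. The mean level of svp was 4.79 FPKM without hormone, 9.81 with 20E at 4 h and 3.86 with insulin at 4 h.

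For nub, CG15905 (0.967) and CG18549 (0.964) came closest, and for pdm2 CCKLR-17D3 (0.947) and GV1 (0.919). For vg they were siz (0.908) and the muscle factor gene Mef2 (0.907), one of the myoblast markers. For sd the closest were mei-P26 (0.89), a TRIM-NHL protein gene, and CG9932 (0.826). The closest to tsh was its own paralog tio (0.921), followed by CREG (0.92). In each case r is over 18 libraries and was ranked among 6593 genes.

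The pairs of paralogs can be compared directly. Like tsh, tio was lowest in fresh discs, at 13.5, 14.2 and 13.9 FPKM, and stood at 22.3, 20.1 and 20.6 without hormone. With 20E at 4 h it stood at 27.6, 26.3 and 26.8 FPKM, and with insulin at 4 h at 18.03, 16.1 and 16.4. It rose in culture by 0.56 ± 0.05 (adjusted p = 1.31e-07) and again in 20E by 0.34 ± 0.05 (adjusted p = 0.00014), as tsh did. In insulin at 4 h it fell against no hormone by 0.30 ± 0.05 (adjusted p = 0.000143), where tsh differed by 0.00.

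The gene next to eyg, toe (twin of eyegone), went the other way in culture. It held 16.2, 14.7 and 13.3 FPKM in fresh discs and 37.7, 32.2 and 33.9 without hormone, a rise of 1.18 ± 0.14 (adjusted p = 2.28e-06), where eyg fell by 0.39. With 20E at 4 h toe reached 59.1, 46.2 and 54.1 FPKM, a further rise of 0.60 ± 0.14 (adjusted p = 0.00443), beside the 0.64 of eyg. Insulin at 4 h lowered toe to 24.4, 16.7 and 19.7 FPKM, by 0.76 ± 0.14 (adjusted p = 0.000289). So toe stood below eyg in fresh discs in terms of mean level (14.7 against 17.9 FPKM) and above it in each cultured group.

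**Figure D5:**
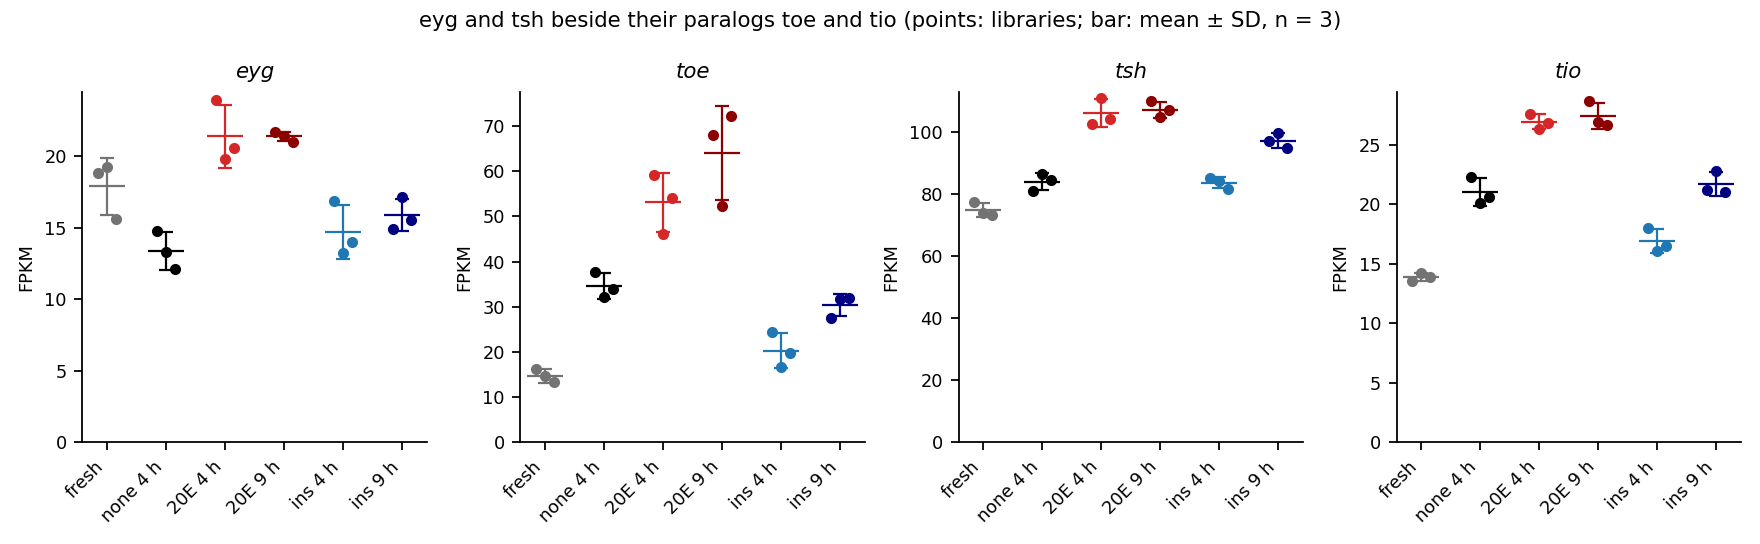
FPKM of eyg and tsh beside their paralogs toe and tio in each library (points), with group mean and SD (bars, n = 3). Between fresh discs and no hormone, eyg falls from a mean of 17.9 to 13.4 FPKM while toe rises from 14.7 to 34.6, and tsh and tio both rise.

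Other genes of the same regions were counted from lists written from general knowledge, with earlier results of these data known. Of 9 genes of the notum and body wall (pnr, ush, ara, caup, mirr, tup, toe, B-H1 and B-H2), 8 were higher in 20E than in no hormone at 4 h and 0 lower, with a median change of 0.43, where 15.7% of all tested genes were higher and 15% lower. The largest rise was that of toe. The GATA factor gene pnr, which sets the medial notum, went from 10.3 to 15.1 FPKM, a rise of 0.51 ± 0.08 (adjusted p = 0.000336). Only B-H1 was not called (0.26, adjusted p = 0.0741). In culture without hormone 4 of the 9 were lower and 1 higher, toe, and the share lower was near that of all tested genes (35.5% lower, 35.1% higher). The largest fall there was that of pnr (-0.29), which was not called without the 2 libraries with the most gut transcripts (adjusted p = 0.0772).

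Of 10 further transcription factors of the wing field (bi, salm, salr, Dll, dve, vvl, nab, elB, noc and bs), 5 rose in 20E at 4 h and 0 fell, with a median change of 0.21 (all tested genes: 15.7% higher, 15% lower). The largest rise was in nab, whose product is a cofactor of Rotund. It held 29.8, 36.2 and 32.0 FPKM without hormone and 53.6, 63.9 and 59.0 with 20E, a rise of 0.83 ± 0.09 (adjusted p = 7.37e-06). In culture without hormone nab had fallen by 0.44 ± 0.09 (adjusted p = 0.000435). With insulin at 4 h 0 of the 10 were higher and 2 lower against no hormone, near the 27.6% of all tested genes that were lower (30.3% were higher). Of the 2, bs fell more (by 0.27). That call of bs was lost in 6 alternatives, among them without no hormone replicate 1 (adjusted p = 0.134), and its rise in 20E was lost without no hormone replicate 2 (0.113).

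Among 7 tested partners and targets of ap (Chi, Ssdp, fng, Ser, Dr, caps and trn), 3 rose in 20E at 4 h and 0 fell, led by trn (0.43), against 15.7% and 15% of all tested genes. Without hormone, where 35.5% of all tested genes were lower and 35.1% higher, 5 of the 7 had fallen against fresh discs, caps most (by 0.60), and 1 had risen, fng (0.12, lost without no hormone replicate 3, adjusted p = 0.0888). Bx, also on that list, is not analysed here. Of 7 hinge genes (zfh2, Sox15, exd, tio, Doc1, Doc2 and Doc3), 1 rose in 20E at 4 h (tio) and 1 fell (Sox15, by 0.17), near the shares of all tested genes (15.7% and 15%). The fall of Sox15 was lost without no hormone replicate 2 (adjusted p = 0.086) and without 20E at 4 h replicate 2 (0.0624). For exd, whose product is the cofactor of Homothorax, the difference from no hormone was 0.09 in 20E (adjusted p = 0.158) and 0.12 in insulin (adjusted p = 0.0305). After quantile normalization the first was called (adjusted p = 0.0231) and the second was not (0.158).

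Of 4 genes around Scalloped and the Hippo pathway (yki, Tgi, wts and ft), 1 rose in 20E at 4 h, wts (by 0.22), where 15.7% of all tested genes rose. The coactivator gene yki rose in culture by 0.42 and was lower in insulin than in no hormone by 0.40, while sd itself differed by 0.03 and 0.01 in those comparisons. At 9 h, 20E exceeded insulin for 8 of the 9 notum genes, 9 of the 10 wing field factors, 7 of the 7 hinge genes, 6 of the 7 partners and targets of ap, and 3 of these 4. In these lists 0 genes were lower, and of all tested genes 26.6% were higher and 26.4% lower. In that comparison Ubx, the leg markers and the eye-antennal markers were also higher in 20E, as given above. The tracheal sum was 139 to 159 FPKM in 20E and 111 to 136 in insulin. What part these marker differences have in the counts was not tested.

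The haemocyte marker sum was 75.1 to 93.9 FPKM without hormone, 31.4 to 39.2 in 20E at 4 h and 22.0 to 23.9 at 9 h. Most of it is the collagen genes Cg25C and vkg, since the other markers each stayed under 1 FPKM. The sum therefore follows these collagen genes and gives no measure of haemocyte number. The myoblast sum was 106 to 114 FPKM without hormone and 91.5 to 113 in 20E at 4 h, overlapping ranges. The tracheal markers btl, trh and vvl summed to 106 to 119 FPKM without hormone and 124 to 132 in 20E at 4 h, most of it vvl, which is also on the wing field list. What part the mixture of cell types has in the 6 rises with 20E was not tested.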

How the data were processed

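Poly(A)-selected, strand-specific RNA-seq libraries were made from wing discs, per the labels' protocols. The authors deposited 1 table of FPKM values with a column per library. The submitters' processing notes name cutadapt, TopHat2, Cufflinks and the genome build BDGP5, without versions. The annotation release is not given in the sources used here. No coordinates are given, since the annotation at hand is of Release 6; it was used for neighbouring genes and transcript lengths.

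Read counts were not part of the files used. In genes with 1 transcript, small FPKM values fell on regular steps, from which 27.8 to 37.8 M fragments per library were estimated. Of these small values 85.3% to 90.7% lay within 0.1 of a whole fragment, where 20% would by chance, and the steps were fitted on the same values. These estimates entered no test. The deposited values summed to 829275 to 918429 FPKM per library, and no 2 columns were identical.

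Columns were matched to samples through the column names in the sample descriptions. A gene was tested if 3 or more of the 18 libraries held 1 FPKM or more (8524 genes). A model with group as its only term was fitted to log2(FPKM + 1) with limma 3.58.1 in R 4.3.3 (eBayes with trend), for 12 comparisons. Tests were two-sided, and calls were made at an adjusted p of 0.05. The script was tested on simulated data. Figures were drawn with matplotlib 3.10.9.

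The genes, the lists and the rule for naming genes were chosen with earlier results of these data known. The rule named all members, the 2 genes most alike to each in pattern, and the largest called rise and fall of each list. The planned pouch score included rn and was computed without it. Group differences of members and of genes on the counted lists were recomputed under alternative settings. These were a pseudocount of 0.1, no low-value filter, a filter on the mean (5 FPKM), rescaling by median ratios, and quantile normalization. Others were a fit on the compared groups alone, array weights, replicate number as a block, and leaving out each library in turn. Differences between genes within a library were recomputed only with the pseudocount of 0.1 and after quantile normalization. List counts were recomputed with these 2 settings and median ratios, and correlations under none. Leaving out together the 2 libraries with the most gut transcripts was added after seeing the data.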

Additional observations from a re-analysis of the deposited data

Results flagged for a closer look

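The change of tsh from 4 h to 9 h differed between the hormones by a test of the difference itself: the change in 20E minus that in insulin was -0.19 (SE 0.05, adjusted p = 0.014). In 20E tsh stood at a mean of 106 FPKM at 4 h and 107 FPKM at 9 h, and in insulin at 83.6 and 97.1 FPKM. All 3 insulin libraries at 9 h exceeded all 3 at 4 h.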

How the results depend on the processing

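Of 96 differences (8 genes in 12 comparisons), 51 were called, and 36 of these were called in all 27 alternatives. The other 15 lost their call in at least 1, and 0 changed sign. Of 45 differences not called, 17 were called in at least 1 alternative and 17 changed sign in at least 1. All 6 calls between 20E and no hormone at 4 h, and all 6 between 20E and insulin at 4 h, held in every alternative run. The cause of the changes below was not tested. In 4 comparisons the number of genes called moved by at most 1.5 times: it was 4 to 6 for no hormone against fresh discs, 5 to 7 for 20E against insulin at 9 h, 5 to 7 for 20E at 9 h against fresh discs, and 3 to 4 for insulin at 9 h against 4 h. In 6 others it moved by more than 1.5 times under some alternatives. For insulin against no hormone at 4 h it was 1 with only the groups compared, and 1 to 2 with each library left out. For 20E at 9 h against 4 h it was 3 with array weights, 2 with the replicate block and 1 to 2 with each library left out. For 20E at 4 h against fresh discs it was 3 without a filter and 3 to 6 with each library left out. For insulin at 4 h against fresh discs it was 3 after quantile normalization, 3 without a filter, 2 with only the groups compared, 1 without the 2 libraries with the most gut transcripts and 1 to 6 with each library left out. For insulin at 9 h against fresh discs it was 2 after quantile normalization, 3 without the 2 libraries with the most gut transcripts and 3 to 5 with each library left out. For the interaction it was 2 with array weights and 1 to 2 with each library left out.

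The differences that changed sign were all uncalled on the authors' scale. After quantile normalization, sd was 0.033 in 20E and -0.031 in insulin against no hormone and 0.064 in 20E against insulin at 4 h. Under the same setting ap was 0.15 in no hormone against fresh discs and 0.020 in insulin from 4 h to 9 h, pdm2 was -0.054 in insulin against no hormone, hth was 0.029 in insulin at 9 h against fresh discs, and eyg was -0.00087 in 20E from 4 h to 9 h. With array weights sd was 0.013 in 20E against no hormone, 0.0013 in 20E against insulin at 4 h, -0.029 in 20E from 4 h to 9 h and -0.0092 in 20E at 9 h against fresh discs. After median-ratio rescaling sd was -0.0017 in 20E at 4 h against fresh discs and eyg -0.0033 in 20E from 4 h to 9 h. Without the 2 libraries with the most gut transcripts ap was 0.020 in no hormone against fresh discs. With each library left out in turn, vg ran from -0.031 to 0.066 in insulin against no hormone, from -0.033 to 0.064 in 20E against insulin at 4 h, from -0.00049 to 0.12 at 9 h and from -0.022 to 0.10 for the interaction. The range for sd was -0.040 to 0.035 in insulin against no hormone, -0.020 to 0.053 in 20E from 4 h to 9 h, -0.026 to 0.023 in 20E at 4 h against fresh discs and -0.019 to 0.054 at 9 h. For ap it was -0.043 to 0.019 in no hormone against fresh discs and -0.056 to 0.025 in insulin from 4 h to 9 h, and for pdm2 -0.11 to 0.13 in insulin against no hormone. For tsh it was -0.030 to 0.016 in insulin against no hormone and -0.0041 to 0.052 in 20E from 4 h to 9 h, and for eyg -0.051 to 0.078 in 20E from 4 h to 9 h. After quantile normalization the pouch balance of fresh discs was -0.62, nub exceeded pdm2 there by 1.65, and vg relative to sd with 20E at 9 h was -1.11 (log2). With a pseudocount of 0.1 nub exceeded pdm2 by 1.81 in fresh discs.

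Replicate numbers are shared between groups, but over all tested genes same-numbered libraries did not deviate together. There r ran from -0.447 to 0.314 over 45 pairs, 8 of them above 0.1, and 7 of 18 libraries correlated best with their own number. Single genes can differ from this. In every group except insulin at 9 h, pdm2 was highest in replicate 1, and the pouch balance was lowest in replicate 2. With the replicate block, calls over all genes for 20E at 9 h against 4 h went from 1951 to 2051, and hth joined vg there (adjusted p = 0.0364). The block also gave pdm2 a call in 20E at 4 h against fresh discs (adjusted p = 0.0298) and ended that of sd between the hormones at 9 h (0.0626). Precision rests on 3 libraries a group, and the deposited values hold no counts.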
